A study of Mus musculus with 93 samples.

Results

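Among blood arrays of mammary tumor-bearing MMTV/c-MYC mice, the 17 with the most Igfbp6 transcript were compared with the 17 with the least. The arrays were ranked within 51 of the 65 tumor arrays of the series, namely training numbers 6 to 32 and validation numbers 9 to 33 without validation 19, by the level of the only Igfbp6 probe set. The 34 arrays compared are part of 93 arrays in all. The groups were chosen by the measured Igfbp6 level, so its own values are a description with no test, and every test below is on other genes.

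Igfbp6 encodes a secreted insulin-like growth factor (IGF) binding protein that binds IGF-II in preference to IGF-I and limits IGF-II action at its receptor. It is best known from connective tissue, epithelia and body fluids, where it restrains growth and movement of cells in some settings and promotes them in others. IGF binding proteins as a family share the ligand-binding ends of the molecule and differ in the part between them.

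Both groups were female FVB/NJ mice carrying a c-MYC transgene in normal or mutant form under the hormone-responsive MMTV promoter, which drives it in the mammary gland, and all had been bred continuously and bore advanced mammary tumors. Which array came from which transgenic line, and the age of each mouse, are not given in the sources used here. Control arrays came from female mice of the same age and strain, kept under like breeding. Blood was drawn from the cheek, red cells were lysed, and leukocyte RNA was amplified and hybridized, 1 array per sample. Mice were bled at intervals and the labels name no animals, so arrays may share a mouse, p-values rest on array-to-array spread alone, and the number of arrays limits the precision.

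Igfbp6 was at 10.7, 11.3 and 12.4 on the log2 scale at the lowest, median and highest of the 17 high arrays. It was at 7.67, 8.58 and 9.2 in the 17 low arrays and at 9.23, 9.93 and 10.6 in the 17 between them. Just inside and just outside the groups lay training 7 at 10.7 and validation 17 at 10.6 at the upper edge, and training 31 at 9.2 and training 19 at 9.23 at the lower edge, so the ranking had no gap at either limit. The 28 control arrays averaged 7.26 ± 0.785 (SD) and reached 9.2. All 17 low arrays lay above the control mean, though 0 of them lay above the highest control array, against 17 of 17 high arrays. The 13 tumor arrays of lower number, which were not ranked, spread from 3.74 to 10.2. Validation 19, left out of the ranking, was at 6.25.

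**Figure D1:**
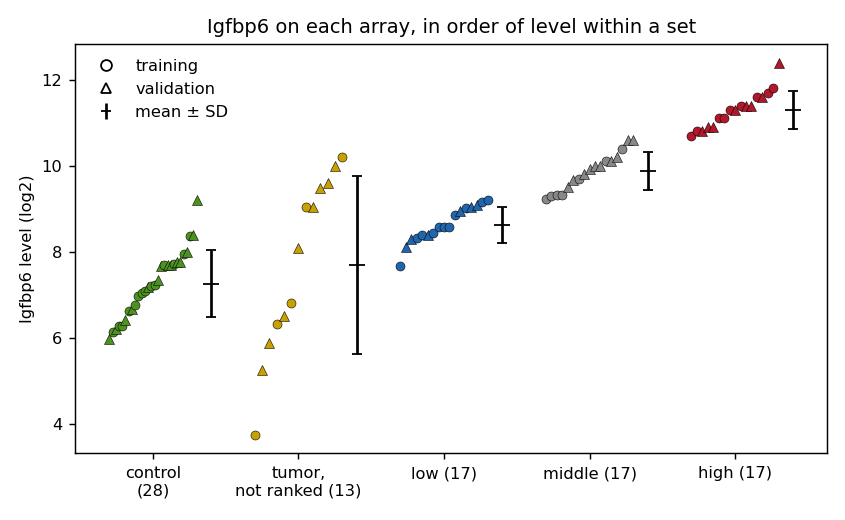
Igfbp6 level (log2) on each array, with 1 point per array in order of level inside its set, circles for training and triangles for validation arrays, and the mean ± SD beside each set. The high arrays start at 10.7 and the low arrays end at 9.2, while the 13 unranked tumor arrays cover almost the whole scale from 3.74 to 10.2.

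The high group held 9 training and 8 validation arrays and the low group 11 and 6 (Fisher's exact test, two-sided, p = 0.728). Any pair of the 34 arrays correlated at 0.960 to 0.995 (Pearson r over probe sets), and 0 pairs were identical. The bacterial poly-A spike-in dap, added to the RNA before labelling, was lower in the high arrays, at 8.09 ± 0.563 against 8.76 ± 0.494 (SD, n = 17 each; permutation test, two-sided, p = 0.00564 adjusted over 6 technical measures). The 18S control was at 8.26 ± 0.423 against 8.71 ± 0.646 (permutation test, adjusted p = 0.0578). The actin difference between 5' and 3' ends, a sign of RNA integrity, was -0.494 against -0.5 (permutation test, adjusted p = 1). The part of the spike-in difference in the results below was not tested beyond the fits that carry it as a covariate. The control arrays averaged 2.22 ± 0.322 (SD, n = 28) in dap, while every compared array was at 6.9 or above, so for any level set beside the controls, here and below, tumor and spike-in handling cannot be told apart.

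The region before the transcription start of Igfbp6 is shown with those of the 4 genes with the highest correlation with it over the ranked arrays, so that the start regions of genes that moved together can be compared, whether or not they hold a motif. Each stretch is the 250 bases upstream of the start, read 5' to 3' on the gene's strand from the RefSeq table of build GRCm38.p6, and all 10 genes had an entry there. Igfbp6 is at chr15:102143936-102144185 on the plus strand, Entpd3 at chr9:120539568-120539817 (plus), Ambp at chr4:63154173-63154422 (minus), Npl at chr1:153549715-153549964 (minus) and Cbr3 at chr16:93682969-93683218 (plus). Capitals mark matches on either strand to the searched letters, which were TTGCNNAA (C/EBP), TTCNNNGAA (STAT), TGANTCA (AP-1), GAGGAAG (PU.1) and CACGTG (E-box, the letters MYC is known to bind).
Igfbp6: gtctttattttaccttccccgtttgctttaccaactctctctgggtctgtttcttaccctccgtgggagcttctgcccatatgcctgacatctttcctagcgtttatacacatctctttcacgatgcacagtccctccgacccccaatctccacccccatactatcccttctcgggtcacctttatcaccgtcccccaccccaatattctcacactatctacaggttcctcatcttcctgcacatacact
Entpd3: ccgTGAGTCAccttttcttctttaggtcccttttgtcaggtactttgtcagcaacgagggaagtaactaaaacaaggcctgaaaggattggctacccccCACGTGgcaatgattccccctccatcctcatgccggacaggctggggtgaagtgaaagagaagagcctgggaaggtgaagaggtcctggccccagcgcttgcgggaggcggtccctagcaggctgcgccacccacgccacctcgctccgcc
Ambp: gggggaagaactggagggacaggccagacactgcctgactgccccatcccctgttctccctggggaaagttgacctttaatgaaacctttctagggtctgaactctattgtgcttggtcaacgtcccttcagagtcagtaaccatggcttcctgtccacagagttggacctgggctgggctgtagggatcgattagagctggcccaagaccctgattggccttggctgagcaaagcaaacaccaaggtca
Npl: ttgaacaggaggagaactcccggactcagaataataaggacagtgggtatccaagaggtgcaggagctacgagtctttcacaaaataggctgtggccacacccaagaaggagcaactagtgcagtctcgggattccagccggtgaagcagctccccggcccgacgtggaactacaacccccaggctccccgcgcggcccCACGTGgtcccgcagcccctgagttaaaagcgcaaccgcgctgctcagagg
Cbr3: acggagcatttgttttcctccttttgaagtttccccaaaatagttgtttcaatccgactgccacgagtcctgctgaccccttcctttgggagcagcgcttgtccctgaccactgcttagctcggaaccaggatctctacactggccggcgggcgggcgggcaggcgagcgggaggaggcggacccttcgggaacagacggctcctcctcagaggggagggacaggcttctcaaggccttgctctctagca
The windows of Igfbp6, Ambp and Cbr3 held none of the 5 motifs. The E-box letters occurred in 3 of the 10 genes, Entpd3, Npl and 0610040J01Rik, against 6.02% of 32851 start regions of the same length, and began 151, 51 and 53 bases before the respective start. C/EBP letters were in 2 of the 10 genes (9.56% of all), AP-1 letters in 2 (6.75%), STAT letters in 1 (7.02%) and PU.1 letters in 1 (10.6%). The percentages count each start region, whereas a gene counted if any of its starts matched. Sema6b had 2 starts, and its AP-1 and PU.1 letters were before the second alone. In Entpd3 the AP-1 letters began 247 bases before the start, and matches did not overlap in the windows shown. A match describes the letters alone and is no evidence of binding.

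Many transcripts differed between the groups. Of 45036 probe sets, 14064 (31.2%) passed an adjusted p of 0.05 in limma's moderated test with cohort as a covariate, 6815 higher and 7249 lower in the high arrays. Taking 1 probe set per gene, 2857 of 18192 genes (15.7%) were higher and 3652 (20.1%) lower. Most changes were small: a difference over 1 (log2) was seen in 194 of the higher and 129 of the lower genes.

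The cohorts were compared separately. The 20 training arrays gave 9520 calls (21.1% of probe sets) and the 14 validation arrays 6240 (13.9%), and 4479 were shared in the same direction with 0 in opposite directions, which is 47.0% of the training and 71.8% of the validation calls. Differences in the cohorts correlated at r = 0.826 across probe sets, which are not independent of each other. An interaction of group with cohort was called for 0 probe sets by limma (1866 had an unadjusted p under 0.05).

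The 12 largest rises named were of mixed kinds. Saa3, an acute-phase serum amyloid, was at 9.85, 11.7 and 13.2 (lowest, median and highest, log2) in the high arrays and at 5.22, 7.39 and 10.6 in the low arrays. It rose by 4.10 ± 0.413 (log2, SE; adjusted p = 9.09e-10), and 14 of 17 high arrays lay above every low array. Lbp, which binds bacterial lipopolysaccharide, rose by 2.24 ± 0.247. Lipg, the endothelial lipase, had the largest rise of those named, 4.47 ± 0.581, from a median of 3.7 in the low to 8.72 in the high arrays. That rise was uneven, because 1 low array reached 11.7, as high as the highest of the high arrays, while the other 16 lay below every high array.

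Ambp, the precursor of the plasma proteins alpha-1-microglobulin and bikunin, was at 8.63, 9.52 and 10.6 in the high and at 5.38, 6.66 and 7.2 in the low arrays. All 17 high arrays exceeded all 17 low arrays, and the rise was 3.01 ± 0.182 (adjusted p = 1.14e-14). Scgb3a1, a small secreted secretoglobin, was at 5.85, 7.32 and 9.12 against 3.86, 4.28 and 4.83. It too did not overlap between groups and rose by 2.88 ± 0.203 (adjusted p = 3.28e-13). Its low-array values were close to the control mean of 4.03 ± 0.423 (SD, n = 28), near the dim end of the array scale. Prok2, a secreted prokineticin that myeloid cells are known to make, went from a median of 7.82 in the low to 11 in the high arrays (adjusted p = 3.86e-09), with 1 low array at 11.3.

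Kit, the receptor of stem cell factor, rose by 3.09 ± 0.337 (adjusted p = 4.72e-09), from a median of 4.4 in the low to 7.58 in the high arrays. Its other probe set was called in the same direction. Of the other 6 genes of progenitor cells, Meis1, Cdk6 and Myb fell and Cd34, Hlf and Mecom were not called. Among genes of basophils and mast cells, Ms4a2, a chain of the IgE receptor, fell by 0.78 ± 0.146 on the log2 scale and Gata2, a transcription factor of these cells, by 0.91 ± 0.126. Both calls were lost with validation 19 among the low arrays (Ms4a2 -0.44, adjusted p = 0.367 and Gata2 -0.61, adjusted p = 0.138), and that on Meis1 with dap as a covariate (-0.32, adjusted p = 0.0919). In the list of basophil, mast cell and eosinophil genes with Ms4a2 and Gata2, 5 of 11 were lower and 3 higher. Hdc was among the higher (0.91, log2), and Mcpt8 was not called. Stfa3, an inhibitor of cysteine proteases from a family of near-identical genes that the probe set may not separate, rose by 2.84 ± 0.355, and Cpne8, a calcium-dependent membrane-binding copine, by 2.52 ± 0.348.

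Entpd3, which breaks down nucleotides outside the cell, was at 9.57, 10.3 and 10.9 in the high and 7.25, 7.75 and 8.58 in the low arrays. The rise was 2.38 ± 0.141 (adjusted p = 7.59e-15) with no overlap. Npl, which splits sialic acid, was at 9.8, 10.5 and 11.3 against 7.12, 8.4 and 9.18 and rose by 2.24 ± 0.152 (adjusted p = 1.58e-13), again without overlap. The uncharacterized 0610040J01Rik rose by 2.30 ± 0.166. All 12 genes named as the largest rises had the same sign in both cohorts, by the rule that named them.

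**Figure D2:**
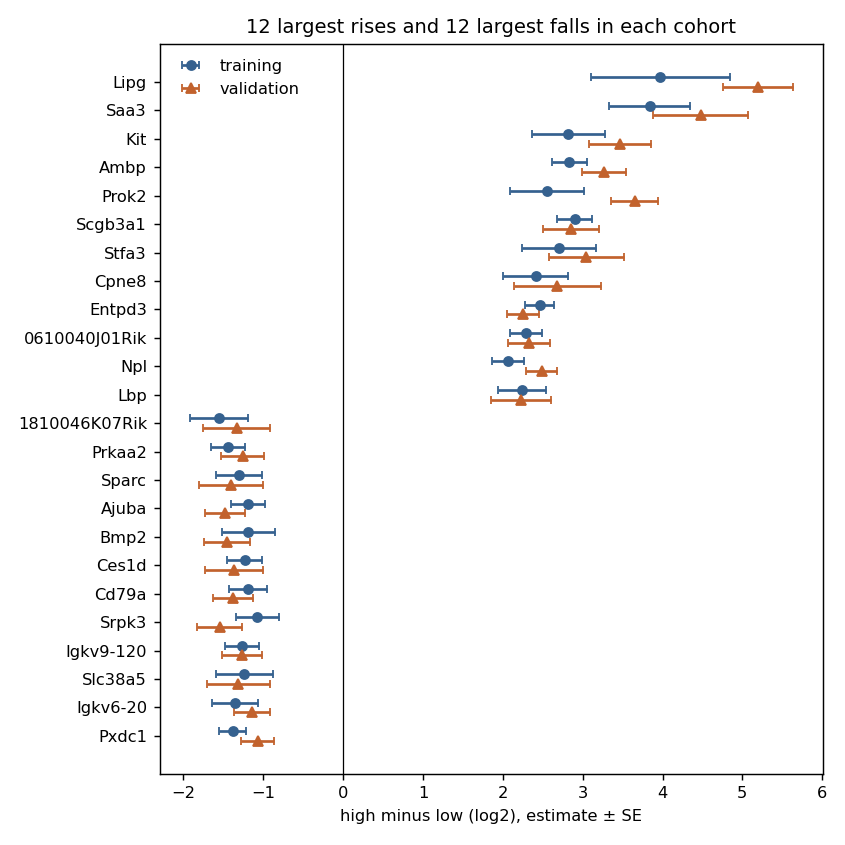
Difference between high and low arrays (log2, high minus low, ± SE) for the 12 largest rises and 12 largest falls, fitted in the training arrays (circles) and in the validation arrays (triangles). Each gene has the same sign in both cohorts, which the naming rule required, and Lipg, at 3.97 in training and 5.20 in validation, has the largest estimate in each.

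Over the 51 ranked arrays 18 genes had a Pearson r above 0.9 with Igfbp6. Closest were Entpd3 (r = 0.964), Ambp (0.959), Npl (0.954), Cbr3 (0.951), Steap4 (0.947), Clec4e (0.929), Lrg1 (0.917), Sema6b (0.916), 0610040J01Rik (0.913) and Il4ra (0.912). These values describe arrays that share blood composition and hybridization, and carry no test. The genes differ in known role: Cbr3 is a carbonyl reductase, Steap4 a metalloreductase, Clec4e (Mincle) a receptor for microbial glycolipids, Lrg1 a neutrophil granule glycoprotein, Sema6b a semaphorin and Il4ra a chain of the receptors for interleukins 4 and 13.

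Cbr3 was at 8.99, 9.47 and 10.2 in the high and 7.17, 7.71 and 8.62 in the low arrays, a rise of 1.82 ± 0.107 (adjusted p = 7.59e-15). Steap4 was at 11.6, 12.1 and 12.5 against 9.02, 10.3 and 10.9, a rise of 1.83 ± 0.132 (adjusted p = 5.97e-13). Il4ra was at 10.3, 10.6 and 11.7 against 9.18, 9.46 and 10.2, a rise of 1.18 ± 0.109 (adjusted p = 1.36e-10). None of these overlapped between the groups, and of the 10 closest genes only Lrg1 and Sema6b did, by 1 high array each below the highest low array. The 10 genes were chosen by correlation with Igfbp6 over arrays that hold both groups. Their p-values and lack of overlap are therefore a description. In all, of 18192 genes, 103 had every high array above every low array and 4 had every high array below.

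**Figure D3:**
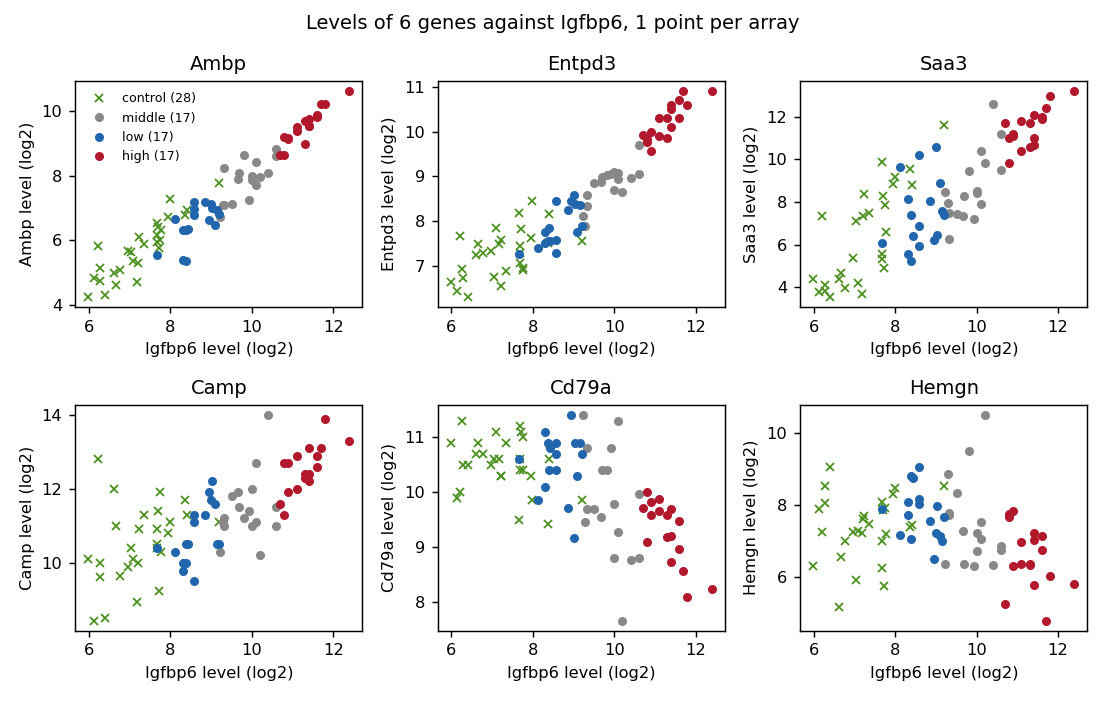
Levels of 6 genes against Igfbp6 (both log2), 1 point per array, for the 17 high, 17 middle, 17 low and 28 control arrays. Ambp and Entpd3 track Igfbp6 closely (r = 0.959 and 0.964 over the 51 tumor arrays), Saa3 and Camp more loosely, Cd79a runs downward with wide spread and Hemgn is lower in the high than in the low arrays with overlap.

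The 4 genes with every high array below every low array had modest differences. Cd55, which protects cells from complement, was at 8.33, 8.75 and 9.23 against 9.26, 9.59 and 9.98 and fell by 0.80 ± 0.0898 on the log2 scale. Gimap5, a GTPase needed for lymphocyte survival, fell by 0.95 ± 0.117, Tmem163 by 0.80 ± 0.105 and Ppfia1 (liprin-alpha-1) by 0.43 ± 0.0548. These 4 were named after their values were seen. The genes whose levels ran most strongly against Igfbp6 over the 51 arrays were Camsap1 (r = -0.829), 6330509M05Rik (-0.799), Rasgrp3 (-0.798), Pxdc1 (-0.787) and Praf2 (-0.787).

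The falls were smaller than the rises, the largest being 1.46 on the log2 scale. Of the 12 named, 3 are genes of the B cell receptor or of antibodies. Cd79a, the signal chain of the B cell receptor, was at 8.09, 9.47 and 10 in the high and at 9.16, 10.7 and 11.4 in the low arrays, and fell by 1.27 ± 0.183 (adjusted p = 1.08e-06). The groups overlapped, with 14 of 17 low arrays above every high array. The kappa antibody segment Igkv6-20 fell by 1.26 ± 0.201 on the log2 scale and another kappa segment by 1.27 ± 0.172, though near-identical genes of that family may share probe signal.

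The other falls were of mixed kinds. Srpk3, a kinase of splicing factors, fell by 1.27 ± 0.207 on the log2 scale. Prkaa2, a catalytic subunit of AMP-activated kinase, went from a median of 8.27 to 6.98 and fell by 1.36 ± 0.174 (adjusted p = 1.11e-07), with 14 of 17 low arrays above every high array. Sparc, a matrix-associated protein also carried by platelets, fell by 1.34 ± 0.250. Ajuba, a LIM-domain scaffold, fell by 1.31 ± 0.169, Bmp2, a secreted ligand of the bone morphogenetic protein family, by 1.30 ± 0.238, and Ces1d, a carboxylesterase, by 1.29 ± 0.209. Pxdc1 fell by 1.25 ± 0.138, Slc38a5, an amino acid transporter, by 1.27 ± 0.280, and the uncharacterized 1810046K07Rik by 1.46 ± 0.293. The call on Slc38a5 was lost with dap as a covariate (-0.78, adjusted p = 0.0692) and with 3 components computed from control probe sets (-0.47, adjusted p = 0.113).

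Marker genes of leukocyte types were counted by list, against a median difference of -0.02 (log2, high minus low) and shares of 15.7% higher and 20.1% lower over all genes. In bulk blood, fewer cells of a type and less RNA per cell cannot be told apart. All 12 measured genes of neutrophil granules were higher, with a median of 0.86. Ltf, the lactoferrin of secondary granules, was at 10.3, 12.1 and 13.3 against 8.62, 9.68 and 11.8 and rose by 1.99 ± 0.279. Camp, the cathelicidin precursor, rose by 1.75 ± 0.227, Ngp by 1.38 ± 0.211 and Lcn2, which captures siderophores, by 0.76 ± 0.103. Among 11 genes of mature neutrophils, 9 were higher and 1 lower (median 0.56). Csf3r, the receptor of granulocyte colony-stimulating factor, rose by 0.68 ± 0.0664 and Mmp9 by 0.62 ± 0.0765. The very bright S100a8 differed by 0.09 ± 0.0527 (adjusted p = 0.239) and S100a9 fell by 0.15 ± 0.0557 on the log2 scale, both named after their values were seen, and the call on S100a9 was lost with arrays centred on their medians and with dap as a covariate, among other settings.

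Of 12 monocyte genes 3 were higher and 1 lower (median 0.09), with Csf1r at 0.39 ± 0.0776. The call on Csf1r was lost in limma with 25 against 25 arrays (0.21, adjusted p = 0.156). Of 8 dendritic cell genes 1 was higher and 3 lower. Siglecf, an eosinophil receptor also found on some neutrophils, rose by 1.57 ± 0.140 (adjusted p = 6.28e-11) without overlap, from 7.82, 8.36 and 8.78 to 9.26, 10 and 11.2. Other eosinophil genes went different ways, with Prg2 higher (0.54), Il5ra lower (-0.86) and Epx and Ccr3 not called. Hdc, the enzyme that makes histamine, rose by 0.91 ± 0.102. Over the whole list of basophil, mast cell and eosinophil genes, 3 of 11 were higher and 5 lower.

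Lymphocyte genes fell together. All 19 measured B cell genes were lower (median -1.13), and their mean level ran from 7.05 to 8.63 in the high and from 7.84 to 9.60 in the low arrays, with controls at 9.27 ± 0.444 (SD, n = 28). Ms4a1, the CD20 antigen, was at 8.07, 9.18 and 9.71 against 9.24, 10.5 and 11 and fell (adjusted p = 3.43e-07). The transcription factor Spib fell by 1.24 ± 0.164 on the log2 scale and the chemokine receptor Cxcr5 by 1.19 ± 0.159. Of 12 plasma cell genes 9 were lower and 1 higher, and 3 were lower with dap and 3 with the control components. Jchain, which joins antibody units, fell by 0.91 ± 0.162, while Xbp1, a factor of the unfolded protein response that other cells use too, rose by 0.74 ± 0.0808. All 9 class II antigen presentation genes were lower (median -0.69), H2-Ob by -1.07 ± 0.160 and H2-Eb1 by -0.92 ± 0.138, and 5 of the 9 were with validation 19 among the low arrays.

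T cell genes were lower for 18 of 19 (median -0.68) and none higher. Cd2, an adhesion receptor, fell by 0.81 ± 0.114 on the log2 scale, Lat, an adaptor of the T cell receptor, by 0.73 ± 0.114, and Zap70, its kinase, by 0.68 ± 0.118. Genes of natural killer and cytotoxic cells were lower for 13 of 14 (median -0.76), and for 8 of 14 with the control components. Tbx21, a factor of these cells, fell by 0.89 ± 0.144, Klrd1 by 0.79 ± 0.127 and the chemokine Ccl5 by 0.65 ± 0.0946. The perforin gene Prf1 alone was not called, at 0.10 ± 0.0561 (adjusted p = 0.189), named after its value was seen.

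Platelet and red cell genes were lower as well. For platelets, 11 of 12 were lower (median -0.28), among them Gp5 by -0.73 ± 0.155 and Pf4 by -0.18 ± 0.0443. For erythroid cells, 15 of 17 were lower (median -0.84), Hemgn by -1.21 ± 0.254 and the heme enzyme Alas2 by -0.26 ± 0.0607. Their mean level spread from 6.85 to 9.16 in the high and from 8.06 to 10.02 in the low arrays. These calls were lost in part with technical covariates: with dap in the fit, 1 of 17 erythroid and 0 of 12 platelet genes were called lower (medians -0.53 and -0.13), and with 3 components computed from control probe sets, 1 and 0 (medians -0.18 and -0.12). With validation 19, at 6.25 in Igfbp6, placed among the low arrays, 0 of 12 platelet genes were called (median -0.01, with Pf4 at -0.01 and Gp5 at -0.37), and 7 of 17 erythroid genes. Neither result therefore held across these settings, and the part of the spike-in difference in them was not tested further. The neutrophil granule, B cell and T cell calls in the same fits were 7, 19 and 19 with dap and 7, 19 and 18 with the components.

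**Figure D4:**
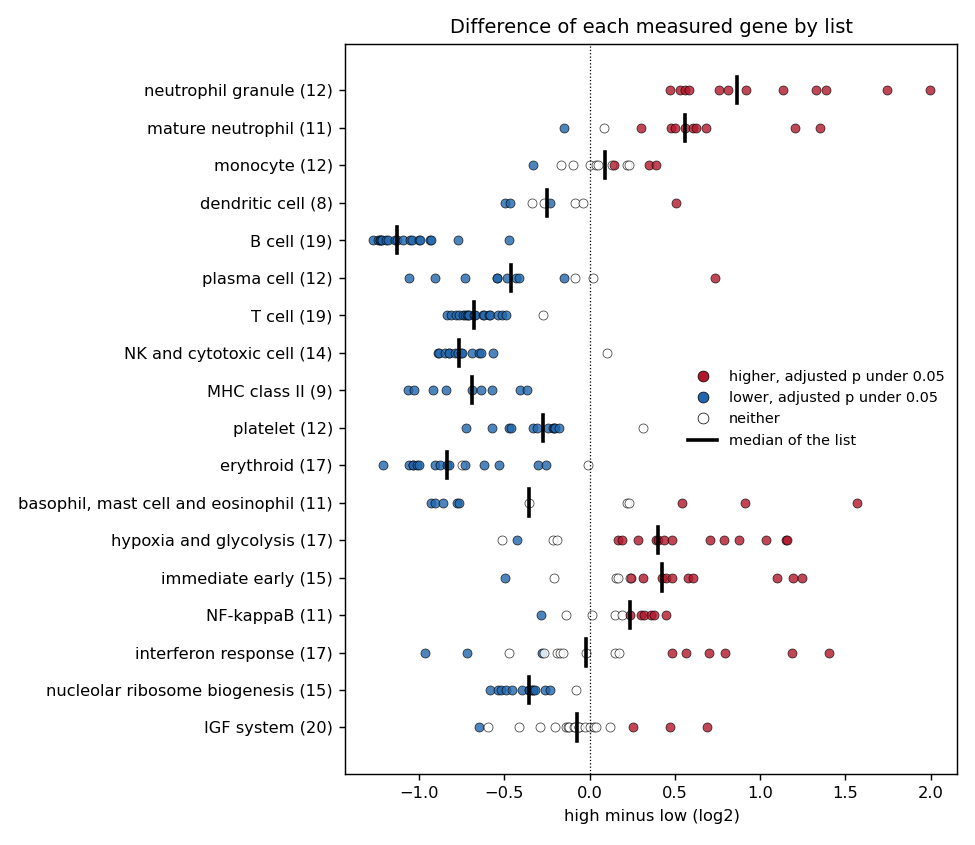
Difference of each measured gene (log2, high minus low) in 18 lists, 1 point per gene, filled where limma's adjusted p was under 0.05, with a bar at the median of the list. Neutrophil granule genes lie right of 0 (median 0.86), B cell, T cell, natural killer and class II genes left of it (medians -1.13, -0.68, -0.76 and -0.69), and the IGF system lies around 0 (median -0.07).

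Because leukocyte genes moved so broadly, the fit was repeated with scores, the mean level of a list's standardized genes, of the neutrophil granule, mature neutrophil, B cell and T cell lists as 4 covariates. These scores held 70.5% of the variance of group membership, and the median standard error of a gene rose from 0.0851 to 0.151. Calls dropped from 6509 genes to 115, of which 102 were higher and 13 lower, and 107 of the 115 had been called in the same direction without the scores. Of the 10 genes closest to Igfbp6, 9 were still called, all but Il4ra (0.40 ± 0.126, adjusted p = 0.14). Those 10 were chosen by correlation with Igfbp6 over the same arrays, so that count is a description. Of the 12 largest rises 6 were still called, namely Saa3, Ambp, Scgb3a1, Entpd3, 0610040J01Rik and Npl, and of the 12 largest falls 0 were.

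With the scores in the fit, Ambp was at 1.80 ± 0.216 (adjusted p = 2.41e-05), Scgb3a1 at 1.81 ± 0.329, Entpd3 at 1.41 ± 0.185 and Cbr3 at 1.11 ± 0.120 (adjusted p = 3.92e-06). Lipg was at 0.43 ± 0.621 (adjusted p = 0.864) and Kit at 0.59 ± 0.319 (adjusted p = 0.456). A score built from a list removes that list's own difference by construction, and Lrg1 is itself a member of the mature neutrophil list. With the 2 neutrophil scores alone, chosen as covariates after the data were seen, 318 genes were called and all 10 of the closest genes among them. The difference between a gene that kept its call and one that lost it was not tested.

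**Figure D5:**
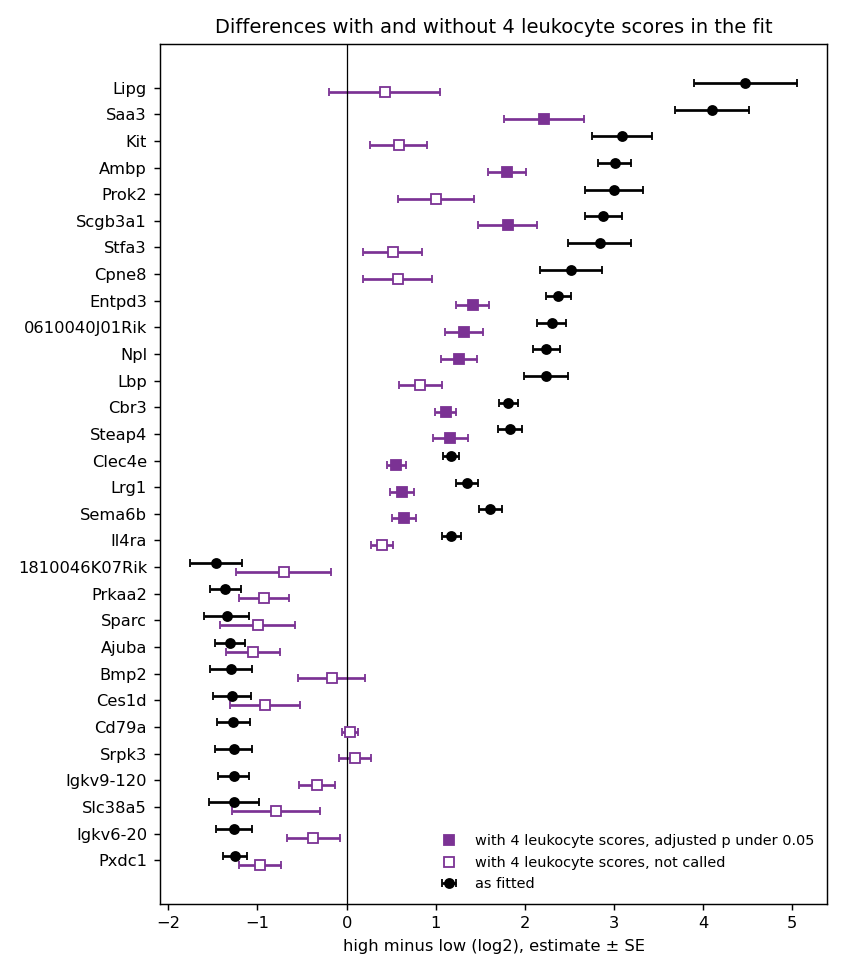
Difference between high and low arrays (log2, ± SE) for the largest rises, the genes closest to Igfbp6 and the largest falls, as fitted (circles) and with 4 leukocyte scores as covariates (squares, filled where the adjusted p was under 0.05). Ambp moves from 3.01 to 1.80 and stays called, Lipg moves from 4.47 to 0.43 and does not, and Cd79a moves to 0.04.

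Genes of glycolysis and low oxygen rose for 13 of 17 and fell for 1 (median 0.40), beside 15.7% higher and 20.1% lower over all genes. Bnip3, a mitochondrial protein of hypoxic cells, was at 10, 10.5 and 11.1 in the high and 9.07, 9.4 and 9.63 in the low arrays, and rose by 1.16 ± 0.0887 (adjusted p = 2.5e-12) without overlap. Ankrd37 rose by 1.15 ± 0.119, the glucose transporter Slc2a1 by 0.87 ± 0.0766 and hexokinase Hk2 by 0.79 ± 0.107. Ndrg1 was the gene that fell, by 0.43 ± 0.0983 on the log2 scale, named after its value was seen. That call was lost in limma with dap as a covariate (-0.18, adjusted p = 0.184), with the control components (-0.17, adjusted p = 0.299) and with validation 19 added (-0.28, adjusted p = 0.272).

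Immediate early genes rose for 10 of 15 and fell for 1 (median 0.42), beside 15.7% higher and 20.1% lower over all genes. Jun was at 8.69, 9.22 and 9.82 against 7.48, 8.07 and 8.44 and rose by 1.19 ± 0.107, and Junb, at 8.06, 8.51 and 8.83 against 6.98, 7.39 and 7.9, rose by 1.10 ± 0.0887. Neither overlapped between groups. Ier3 rose by 1.25 ± 0.118, while Egr1, the gene that fell and named after its value was seen, fell by 0.50 ± 0.101 on the log2 scale. With the control components 5 of the 15 were higher. Of 11 NF-kappaB genes 6 were higher and 1 lower (median 0.24, and 3 higher and 0 lower with the components), with Rela, a DNA-binding subunit, at 0.45 ± 0.0636 and its inhibitor Nfkbia at 0.24 ± 0.0471. In limma the call on Nfkbia was lost with the components (0.14, adjusted p = 0.0648) and with the replicate block (0.29, adjusted p = 0.0678).

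Beside 15.7% higher and 20.1% lower over all genes, 6 of 17 interferon response genes were higher and 3 lower. Their median of -0.02 joined -0.29 in the training and 0.30 in the validation arrays, and was 0.15 with dap as a covariate. Oas2 rose by 1.41 ± 0.210 and Oasl2 by 1.19 ± 0.124, both of the oligoadenylate synthetase family, while Ifit2 fell by 0.97 ± 0.150 on the log2 scale. Of 15 genes of ribosome assembly in the nucleolus, a set that MYC is known to drive, 14 were lower (median -0.35), with Ncl at -0.40 ± 0.0650 and Gnl3 at -0.54 ± 0.0998. That list held Myc, whose transcript was at 7.25, 8.33 and 9.27 in the high and 7.99, 8.85 and 9.77 in the low arrays and fell by 0.58 ± 0.172 (adjusted p = 0.00762), with wide overlap. The call on Myc was lost with array weights in the limma fit (-0.39, adjusted p = 0.0725), with the erythroid score (-0.39, adjusted p = 0.178) and with the replicate block (-0.44, adjusted p = 0.331). The array does not separate the transgene from the mouse gene. Ribosomal protein genes were called for 4 of 30, and 8 of 16 proliferation genes were lower with 0 higher, against 2 lower with dap as a covariate and 1 with the control components. Heat shock genes were higher for 3 and lower for 5 of 11, and respiratory chain genes higher for 3 and lower for 6 of 25, the latter 0 with the control components. The lower share of interferon genes and both respiratory chain shares are near those over all genes, and the called share of ribosomal protein genes is below them.

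In the IGF system, 3 of the 20 other measured genes were higher and 1 lower (median -0.07), beside 15.7% and 20.1% over all genes, so the higher share is near the background. Igf1r, the receptor of both IGFs, was at 10.3, 10.8 and 11.5 in the high and 9.89, 10.1 and 10.7 in the low arrays, with 10 of 17 high arrays above every low array. It rose by 0.69 ± 0.109 (adjusted p = 5.09e-06), and its 4 other probe sets were called in the same direction. The receptor substrate Irs2 rose by 0.47 ± 0.0936 and the insulin receptor Insr by 0.25 ± 0.0589, the latter with 0 of its 2 other probe sets called, and Grb10, an adaptor that restrains these receptors, fell by 0.65 ± 0.168 on the log2 scale. The call on Grb10 was lost with dap (-0.39, adjusted p = 0.155), with the control components (-0.38), with validation 19 added (-0.51), with 25 against 25 arrays (-0.37) and with the erythroid score (-0.52), and that on Insr with the components, with validation 19 and with 25 against 25 arrays. Igf1r, Irs2, Insr and Grb10 all lost their calls with the 4 leukocyte scores, the neutrophil scores and the B cell score. With the 4 leukocyte scores Igf1r was at 0.24 (limma, adjusted p = 0.677) and Irs2 at 0.21 (adjusted p = 0.678).

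The ligands and the other binding proteins were not called on their brightest probe sets, though Igfbp7 was lower on its probe set with the largest spread (-0.47, adjusted p = 0.00648). Igf2, the preferred ligand of the Igfbp6 protein, was near the dim end of the scale at 3.11, 3.62 and 4.13 in the high and 3.19, 3.65 and 5.24 in the low arrays and differed by -0.14 ± 0.130 (adjusted p = 0.476). Igf1 differed by -0.21 ± 0.128 (adjusted p = 0.244). Igfbp4, the brightest of the other binding proteins, was at 6.48, 8.23 and 9.48 against 6.35, 8.54 and 9.42 (-0.29 ± 0.281, adjusted p = 0.493). Igf2r, which clears IGF-II, differed by 0.02 ± 0.110 (adjusted p = 0.91). Downstream, 6 of 18 genes of the PI3K, AKT and FOXO pathway were higher and 4 lower, the lower share near that over all genes. Rheb, which activates mTOR, rose by 0.50 ± 0.0591 without overlap between groups, Akt1 by 0.56 ± 0.0703, and Foxo4 fell by 0.82 ± 0.152 on the log2 scale. In the TGF-beta pathway 4 of 15 were higher and 4 lower, beside 15.7% and 20.1% over all genes. Tgfbi rose by 0.50 ± 0.0508 and Ltbp1 fell by 0.46 ± 0.0828 on the log2 scale, the call on Ltbp1 being lost with validation 19 added (-0.15).

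Markers of other tissues were counted in the same way, beside 15.7% higher and 20.1% lower over all genes, and their part in the Igfbp6 differences was not tested. Of 15 fibroblast genes 2 were higher and 2 lower, and their mean level ran from 4.14 to 4.51 in the high and from 4.06 to 5.15 in the low arrays. Fap, a fibroblast protease, rose by 1.04 ± 0.149 and was at 3.44 to 5.28 in the high arrays. Col1a1, Col1a2, Col3a1 and Dcn averaged between 3.01 and 4.18 there, with Col1a1 at a called difference of -0.51 and the others not called. Endothelial genes were lower for 4 of 10, keratinocyte genes higher for 1 and lower for 2 of 11, mammary epithelium and milk genes higher for 1 and lower for 4 of 15, and skeletal muscle genes higher for 1 and lower for 1 of 10. Of the lower mammary genes, Krt18 and Epcam lost their calls with dap and with the control components, and Cdh1 with validation 19 added. Of 6 adipocyte genes Retn alone was called, rising by 1.02 ± 0.120, and of 9 liver and plasma protein genes 3 were higher, Ambp and Hp among them. Alb, the albumin that marks liver, was near the dim end of the scale at 3.94 in the high and 4.18 in the low arrays (means).

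On chromosome 15 the 20 nearest measured genes, taken in the order of the RefSeq table, had a median difference of -0.02 with 4 higher and 3 lower. Over all genes 15.7% were higher and 20.1% lower, so both counts are near that background. The neighbour Spryd3 rose by 0.70 ± 0.0808, the next gene Tns2 by 0.70 ± 0.127 and Zfp740, on the other side, by 0.48 ± 0.0679. The other 17 ranged from -0.76 (Krt18, a keratin) to 0.34 (Espl1, a separase, not called). In limma the call on Krt18 was lost with dap (-0.74, adjusted p = 0.0637) and with the control components (-0.68, adjusted p = 0.126).

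Arrays outside the ranking gave a separate look, chosen after the data were seen. Over the 28 control arrays, with cohort as a covariate, 720 genes (3.96%) had a positive slope on Igfbp6 and 96 (0.528%) a negative one at an adjusted p under 0.05 in limma. Of the 2857 genes higher in the high arrays, 586 had a called positive and 0 a called negative slope in controls. Of the 3652 lower genes, 41 had a called negative and 7 a called positive slope. Ambp had a slope of 1.01 ± 0.104 (SE, log2 per log2 of Igfbp6; adjusted p = 8.62e-07), Saa3 of 2.19 ± 0.338, Prok2 of 2.11 ± 0.312, Npl of 1.06 ± 0.125 and Lrg1 of 0.72 ± 0.0796.

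Scgb3a1 (0.20 ± 0.0921, adjusted p = 0.238) and Entpd3 (0.36 ± 0.112, adjusted p = 0.0607) did not pass in the controls. Of the 12 largest falls 0 passed, which is near the 0.528% of all genes with a called negative slope. Control array validation 11 was highest in Igfbp6, at 9.2 with the next at 8.4, and without it 443 genes had a positive and 41 a negative slope, 8 of the 12 largest rises passed in place of 10, and 9 of the 10 closest genes passed as before. The calls lost were Lipg (adjusted p = 0.0768) and Cpne8 (adjusted p = 0.123). For the lists, neutrophil granule genes had a called positive slope for 5 of 12 and mature neutrophil genes for 7 of 11, beside 3.96% of all genes. B cell genes had a called slope in either direction for 0 of 19, T cell genes for 0 of 19 and erythroid genes for 0 of 17. These counts of 0 are near the shares over all genes, 3.96% positive and 0.528% negative. Whether a slope in controls and a difference in tumor arrays differ was not tested.

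The 13 unranked tumor arrays differed from the compared arrays in technical signs. Their actin difference was -2 to -1.2 against -0.6 to -0.4, and their dap level 2.11 to 3.83. The 18S control ran against Igfbp6 among them, at 9.14 to 10.8 in the 7 arrays lowest and 8.05 to 9.59 in the 6 highest in Igfbp6, and its part in the slopes was not tested. Ambp had a positive slope on Igfbp6 (0.95, adjusted p = 0.000236 in limma), as did Entpd3 (0.62, adjusted p = 0.0025), Npl (0.59, adjusted p = 0.00302) and Steap4 (0.51, adjusted p = 0.00119). Scgb3a1 was at 0.40 (adjusted p = 0.0525). A slope was called there for 241 of 18192 genes. Of these, 234 were called in the same direction between the high and low arrays and 0 in the opposite one. Over all genes 15.7% were higher and 20.1% lower in the high arrays, and the signs of difference and slope matched for 60.6%.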

How the data were processed

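Values as deposited are log2 intensities from RMA (version not given in the sources used here) from Affymetrix mouse genome arrays, and whether they hold the study's standardization on principal components of control probe sets is not stated. Of 45101 probe sets, 64 were controls. Probe sets were named through the platform annotation: 34945 had 1 gene symbol, 932 several and 9160 none, and genes were named only from the first kind. A gene was represented by its brightest such probe set across the 93 arrays, giving 18192 genes.

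The 17 highest and 17 lowest of 51 arrays in Igfbp6 were compared with limma 3.58.1 (R 4.3.3; lmFit, then eBayes with trend; Benjamini-Hochberg adjustment over all 45036 probe sets that are neither controls nor Igfbp6), with cohort as a covariate. An adjusted p under 0.05 is a call. The method was checked on simulated data. Named genes are the 12 largest rises and falls among called genes brighter than the median probe set (4.79, log2) and of the same sign in both cohorts, the 10 genes most and 5 least like Igfbp6, the IGF system, Myc, chromosome neighbours and up to 4 genes per list with the smallest p; other list members, and genes named for lack of overlap, were named after their values were seen. The members and the 33 gene lists were chosen with earlier results of these data known. A list made of 10 genes known to rise with Igfbp6 here (all 10 were higher) is not independent and is not used. The number of arrays limits the precision. Some listed genes had no probe set of 1 symbol and were not analysed here. Technical measures were compared by permutation tests with 100000 resamples. Start regions are from RefSeq, GRCm38.p6.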

Additional observations from a re-analysis of the deposited data

How the results depend on the processing

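Against 14064 called probe sets (6815 higher, 7249 lower), the counts moved by more than 1.5 times under these fits: 9004 (4529 higher, 4475 lower) with dap as a covariate, 7562 (3962, 3600) with 3 components of the control probe sets, 8751 (4287, 4464) with the erythroid score, 171 (149, 22) with 4 leukocyte scores and, chosen after seeing the data, 499 (411, 88) with the neutrophil scores and 1677 (1255, 422) with the B cell score. The higher share of calls, 48.5%, became 87.1%, 82.4% and 74.8% with the last 3 of these and 54.8% with arrays centred on their medians. The replicate block gave 3178 (2197, 981; 69.1% higher). Same-numbered arrays of the cohorts correlated at -0.263 to 0.386 over 23 pairs, 6 of them above 0.1, and 1 of 23 training arrays correlated best with its own number, so the label numbers were not taken to pair the samples. Slopes in controls were called for 1808 probe sets, and for 1038 without control array validation 11. The other 15 planned settings kept the counts within 1.5 times. Among these, leaving out arrays with a low actin difference, removed 0 of the 34 arrays.

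Of the named genes called and the lists whose median exceeded the spread of their genes, those below changed sign, and no such gene was called there. With 4 leukocyte scores these were Cd79a at 0.0393, Srpk3 at 0.0949, Insr at -0.0254, Wdr43 at 0.0902, Nop58 at 0.138, Krt18 at 0.0362, and the medians of the T cell (0.0730) and nucleolar (0.0354) lists. With the B cell score they were Cd79a at 0.0199, Srpk3 at 0.0911, Mzb1 at 0.00941 and the B cell list at 0.0161. With the neutrophil scores they were Ngp at -0.0693 and the granule list at -0.00548, and with the erythroid score its own list at 0.0136. The scores are made of such genes. Medians of lists nearer 0 changed sign more often, among them ribosomal protein (-0.07, but 0.16 with 4 scores and 0.04 with the replicate block) and interferon response (-0.02, but 0.21 with the block and 0.15 with dap). With the block 4 of 19 B cell and 1 of 19 T cell genes were called.

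Arrays give no read depth. Many tissue markers lay at the dim end of the scale, where small differences cannot be read, and the cause of the changes with covariates was not tested.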
